A study of Mus musculus with 10 samples.

Results

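Left ventricles of mice carrying the high-level line of a constitutively active Nrf2 transgene (TGH, genotype CaNrf2-High in the labels) were compared with those of non-transgenic mice (NTG). The comparison takes 3 TGH and 4 NTG libraries of the 10 in the series. The other 3 libraries come from a second line of lower transgene level (TGL, CaNrf2-Low) and serve here as the test of whether a change differed between the lines. All mice were males of the C57BL/6J strain aged 6 months, and the labels list no further allele and no agent. What drives the transgene and what makes the protein constitutively active is not given in the sources used here. Each transgenic group is 1 line, so the level of the transgene and its place of insertion cannot be told apart. The labels give 1 sample per library and do not say more on how animals were kept apart, so p-values measure the spread between these samples. The data are the messenger RNA measurements of a study of Nrf2-dependent microRNAs in the heart.

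RNA was read as whole-number counts per gene. The 7 libraries held 7893108 to 10896535 counts, and levels are given as CPM, read counts scaled to the size of each library with edgeR's TMM factors. A gene at 3 counts, the limit that a count of 0 allows, stood at 0.26 to 0.401 CPM in these libraries. These limits cover counting error only. The 10 most abundant genes took 11.7 to 12.6% of the counts in TGH libraries and 15.1 to 16.0% in NTG libraries. On the first principal component, which held 54.5% of the variance of all 10 libraries, TGH libraries lay between 42.3 and 52.0 and NTG libraries between -44.4 and -37.6. NTG 2 stood apart from the other NTG libraries: its differences from them were 17.8 to 18.8 times counting noise, against 3.002 to 7.318 times among NTG 0, NTG 1 and NTG 3. TGH 2 differed from TGH 0 and TGH 1 by 11.81 and 11.01 times counting noise, against 6.82 times between TGH 0 and TGH 1. TGL 2 differed from TGL 0 and TGL 1 by 11.89 and 11.49 times, against 4.628 times between TGL 0 and TGL 1. Ventricular markers were abundant in every library, with Myl2, the ventricular regulatory light chain, at 7460 to 8445 CPM in TGH and 9782 to 11517 CPM in NTG hearts. The atrial light chain Myl7 had 0 counts in the 3 TGH libraries and 0 to 4 in the NTG libraries.

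Nrf2, encoded by Nfe2l2, is a transcription factor that Keap1 binds in the cytoplasm and hands to a Cul3 ubiquitin ligase for destruction by the proteasome. Oxidants and electrophiles modify Keap1, Nrf2 is then spared, enters the nucleus, pairs with a small Maf protein and binds antioxidant response elements near genes of glutathione, thioredoxin, NADPH and quinone metabolism. In the heart these genes buffer the oxidants that mitochondria release during beating, and lasting activation shifts the redox balance towards reduction.

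The core of the antioxidant response element, TGACNNNGC, was searched on both strands in windows from 250 bases before to 50 bases after the start of genes (RefSeq, GRCm38.p6). It was held by 12.4% of all 32851 windows, by 17.2% of the 9803 tested genes with a window, by 288 of 1598 genes that rose and by 291 of 1691 that fell. Of the genes that rose at least 4-fold and had a window, 37 of 171 (21.6%) held it. Among the textbook Nrf2 targets that rose, 24 had a window and 7 (29.2%) held the core. The 4 of these with the smallest adjusted p are shown because their messages were among the clearest rises, with the core in capitals. They lie at chr1:21240335-21240634 on the plus strand (Gsta3, a glutathione S-transferase), chr3:122245307-122245606 on the plus strand (Gclm, a subunit of the enzyme that makes glutathione), chr4:149166033-149166332 on the minus strand (Pgd, a NADPH-yielding dehydrogenase) and chr2:152105274-152105573 on the plus strand (Srxn1, which repairs overoxidised peroxiredoxins). The core begins 121 and 134 bases before the start in Gsta3 and Gclm, and 3 and 28 bases after it in Pgd and Srxn1. Pgd has 2 windows, and the 1 shown is the first that holds the core. Which start of Pgd the heart uses was not tested, so this match may lie outside its active promoter. The window of Srxn1 also holds the AP-1 motif TGACTCA, a sequence that overlaps the antioxidant element in many genes. A match describes letters only and says nothing of binding.
Gsta3: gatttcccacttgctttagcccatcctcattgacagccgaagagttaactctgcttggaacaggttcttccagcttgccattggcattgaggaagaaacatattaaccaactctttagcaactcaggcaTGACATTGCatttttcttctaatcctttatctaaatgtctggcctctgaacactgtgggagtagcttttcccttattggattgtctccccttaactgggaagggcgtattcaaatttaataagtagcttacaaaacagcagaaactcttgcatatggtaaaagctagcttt
Gclm: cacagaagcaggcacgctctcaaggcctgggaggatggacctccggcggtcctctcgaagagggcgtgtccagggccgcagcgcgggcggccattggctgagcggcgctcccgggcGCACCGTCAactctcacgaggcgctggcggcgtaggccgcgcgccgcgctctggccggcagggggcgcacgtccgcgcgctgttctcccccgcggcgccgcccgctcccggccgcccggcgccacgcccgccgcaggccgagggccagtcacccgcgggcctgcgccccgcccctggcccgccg
Pgd: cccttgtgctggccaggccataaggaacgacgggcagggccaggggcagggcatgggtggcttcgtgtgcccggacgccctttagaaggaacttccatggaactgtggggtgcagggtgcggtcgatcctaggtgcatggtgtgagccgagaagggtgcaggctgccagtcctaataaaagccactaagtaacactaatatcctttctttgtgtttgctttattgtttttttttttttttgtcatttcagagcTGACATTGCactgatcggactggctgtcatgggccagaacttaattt
Srxn1: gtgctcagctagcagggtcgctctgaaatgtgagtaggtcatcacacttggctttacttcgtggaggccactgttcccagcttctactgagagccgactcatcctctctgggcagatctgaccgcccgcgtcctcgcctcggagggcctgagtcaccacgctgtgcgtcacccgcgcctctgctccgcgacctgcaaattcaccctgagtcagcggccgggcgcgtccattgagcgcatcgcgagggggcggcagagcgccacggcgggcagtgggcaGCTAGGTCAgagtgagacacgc

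A second motif concerns genes that fell. The endoplasmic reticulum stress element consists of CCAAT and CCACG separated by 9 bases and lies near genes of protein folding that the unfolded protein response switches on. It was held by 39 of all 32851 windows (0.119%) and by 14 of the 9803 tested genes with a window. Among genes that fell 10 of 1691 held it, and among genes that rose 1 of 1598. Of the 23 tested unfolded protein response genes with a window 8 held it. These 8 are among the 14, so the counts overlap and are not separate observations. As above, a match to the element says nothing of binding. The windows of Canx, a chaperone of the endoplasmic reticulum membrane, and Hspa5, the main chaperone of its lumen, are shown because they have the smallest adjusted p among the members that fell and hold it. Canx lies at chr11:50325624-50325923 on the minus strand with the element from 145 bases before the start. Hspa5 lies at chr2:34771840-34772139 on the plus strand with an element from 65 bases before the start, in capitals.
Canx: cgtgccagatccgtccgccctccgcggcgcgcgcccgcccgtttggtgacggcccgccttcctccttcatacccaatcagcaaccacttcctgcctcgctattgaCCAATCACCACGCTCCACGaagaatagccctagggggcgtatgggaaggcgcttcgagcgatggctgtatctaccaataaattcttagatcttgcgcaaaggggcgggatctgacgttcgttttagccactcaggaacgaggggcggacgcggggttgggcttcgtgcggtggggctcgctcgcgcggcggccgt
Hspa5: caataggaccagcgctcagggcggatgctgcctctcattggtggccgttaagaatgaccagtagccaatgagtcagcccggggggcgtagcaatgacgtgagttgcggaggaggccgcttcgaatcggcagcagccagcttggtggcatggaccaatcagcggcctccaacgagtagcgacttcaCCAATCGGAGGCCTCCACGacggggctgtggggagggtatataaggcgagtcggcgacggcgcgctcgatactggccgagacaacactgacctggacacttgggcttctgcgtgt

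The TGH hearts differed from NTG hearts in about as many genes up as down, but the large changes were mostly rises. Of 14511 genes that passed the low-count filter, out of 21222 in the table, 4700 (32.4%) passed an adjusted p of 0.05 in edgeR's quasi-likelihood test. Of the tested genes, 2322 (16.0%) rose and 2378 (16.4%) fell. The counts of every gene list below are to be read beside these shares. Without TGH 1 the called genes numbered 3108, with 1610 rises and 1498 falls. At least 4-fold changes were 284 rises and 99 falls, and at least 8-fold changes were 177 rises and 23 falls. The median log2 fold change was 0.74 among rises, -0.55 among falls and -0.02 over all tested genes. Every TGH library stood above every NTG library in 2800 genes (19.3%) and below every NTG library in 2842 (19.6%), and the groups did not overlap in 4342 of the called genes. Of the rises, 258 had an NTG mean under 1 CPM and 29 had no count in any NTG library. In whole ventricle, fewer cells of a type and less RNA per cell cannot be told apart. All adjusted p-values below are from this test, adjusted over the 14511 genes by Benjamini-Hochberg, with log2 fold changes given with their standard error.

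**Figure D1:**
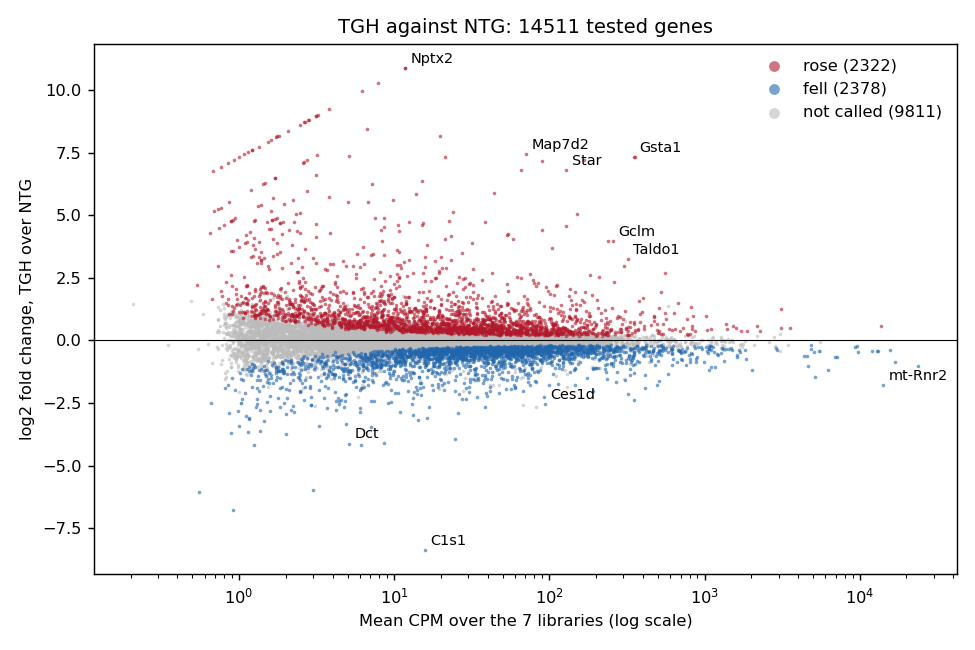
Log2 fold change of TGH over NTG hearts (vertical axis) against the mean CPM of the 7 libraries (horizontal, log scale) for 14511 tested genes; red points rose (2322), blue points fell (2378) and grey points were not called. The points farthest from 0 are mostly rises, with 177 rises and 23 falls of at least 8-fold.

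Among Nrf2 and its partners, Nfe2l2, Keap1, Mafg, Bach2 and Sqstm1 rose and Cul3 and Nfe2l1 fell, out of 11 members tested. The median log2 fold change of the list was 0.02. Nfe2l2, the gene the transgene derives from, lies on chromosome 2 from 75675513 to 75704641 (GRCm38, ENSMUSG00000015839). Its level was 254, 182 and 244 CPM in TGH 0, TGH 1 and TGH 2 and 164, 145, 88.2 and 122 CPM in NTG 0 to NTG 3. All TGH libraries lay above all NTG libraries. Permuting the 7 libraries exactly (35 splits, two-sided, on log2 CPM) gave a 1.77-fold higher level in TGH and p = 0.0571. That is the smallest p this two-sided test can give with 35 splits. Across all genes the edgeR fit gave a log2 fold change of 0.80 ± 0.19 (adjusted p = 0.0078). Whether the counts of Nfe2l2 include reads of the transgene cannot be told from counts per gene. Keap1 stood at 59.4, 61.8 and 66.8 CPM in TGH hearts and at 41.3, 42.0, 41.3 and 43.6 CPM in NTG hearts, a log2 rise of 0.58 ± 0.07 (adjusted p = 8.72e-05). Mafg, a small Maf partner of Nrf2, averaged 112 ± 22 CPM in TGH and 47.8 ± 6.95 CPM in NTG hearts (SD, n = 3 and 4; log2 1.23 ± 0.14, adjusted p = 4.14e-05). Cul3, the scaffold of the ligase, was lower by a log2 of -0.29 ± 0.07 (adjusted p = 0.00586), and Nfe2l1, a related factor that acts on proteasome genes, by -0.35 ± 0.07 (adjusted p = 0.00262).

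Most textbook targets of Nrf2 rose. Of 36 tested members 29 rose, none fell and the median log2 fold change was 1.53, beside 16.0% of all tested genes that rose and a median of -0.02. The 7 members not called were Hmox1, G6pdx, Me1, Ftl1, Osgin1, Aox1 and Ugdh. The list's mean log2 level was 1.84, 1.89 and 1.93 above the NTG mean in the 3 TGH libraries, while the 4 NTG libraries lay between -0.17 and 0.11. The lists were written with earlier results of these data known, so this is a description and not independent evidence of direction.

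Several genes of glutathione synthesis and recycling rose in the TGH hearts. Of 13 tested members 7 rose, among them both subunits of glutamate-cysteine ligase (Gclc and Gclm), glutathione synthetase (Gss), glutathione reductase (Gsr), the cystine carrier Slc7a11 and the transpeptidase family member Ggt5, and the median log2 fold change was 0.63. Gclm, whose promoter is printed above, stood at 509, 553 and 582 CPM in TGH hearts and at 41.2, 43.1, 30.5 and 27.0 CPM in NTG hearts. This is a gap of more than 10 times between the nearest libraries and a log2 rise of 3.95 ± 0.15 (adjusted p = 8.83e-09). Gss reached 38.3, 40.7 and 45.8 CPM in TGH against 13.9, 11.1, 12.6 and 11.4 CPM in NTG hearts (log2 1.77 ± 0.12, adjusted p = 6.71e-07), and it shares 10.3% of its 50-base words, the stretches of that length in its transcripts, with other genes. Gsr averaged 94.4 ± 5.66 CPM in TGH and 24.3 ± 2.64 CPM in NTG hearts (SD, n = 3 and 4; log2 1.95 ± 0.14, adjusted p = 1.53e-06). Slc7a11 was uneven within TGH, at 27.8, 29.8 and 89.0 CPM, but all 3 values were above the 9.33 to 13.6 CPM of NTG hearts (log2 2.05 ± 0.36, adjusted p = 0.00122). Chac1, which breaks glutathione down, fell with Oplah, and the list held 0 falls without TGH 0 or without TGH 1, 1 without NTG 0 or NTG 3 and 3 without NTG 2.

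Among the glutathione S-transferases, which attach glutathione to electrophiles, 8 of 23 tested members rose and 3 fell, with a median log2 fold change of 0.27. The rises were all of the alpha and mu classes (Gsta1 to Gsta4 and Gstm1 to Gstm4), and the falls were Gstm7, Gstt1 and Gstk1. Gsta1 (ENSMUSG00000074183) stood at 948, 789 and 708 CPM in TGH hearts and at 5.35, 5.70, 3.71 and 5.49 CPM in NTG hearts, a log2 rise of 7.32 ± 0.18 (adjusted p = 1.9e-10). Gsta2 stood at 448, 400 and 314 CPM in TGH and at 2.94, 2.28, 1.91 and 3.43 CPM in NTG hearts (log2 7.19 ± 0.20, adjusted p = 4.9e-10). Both are uncertain as single genes, since 90.5% of the words of Gsta1 and 49.8% of those of Gsta2 occur in other genes and the counter is not given in the sources used here. Gsta3, with 0.273% shared words, showed the class on its own: 198, 211 and 184 CPM in TGH against 10.8, 8.09, 12.2 and 6.41 CPM in NTG hearts (log2 4.40 ± 0.16, adjusted p = 5.93e-09). Gstm2 averaged 395 ± 66.2 CPM in TGH and 67.8 ± 6.56 CPM in NTG hearts (SD, n = 3 and 4; log2 2.54 ± 0.14, adjusted p = 1.73e-07). In the other direction Gstk1, the mitochondrial and peroxisomal kappa enzyme, stood at 29.3, 25.9 and 28.2 CPM in TGH and at 84.5, 83.8, 75.0 and 76.0 CPM in NTG hearts (log2 -1.52 ± 0.09, adjusted p = 3.48e-07).

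Enzymes that remove peroxides rose more often than they fell, with 12 rises and 3 falls of 19 tested members and a median log2 fold change of 0.54. The rises took in catalase, 4 glutathione peroxidases and the peroxiredoxins Prdx1 to Prdx4 and Prdx6, and the falls were Sod3, Prdx5 and Sesn1. Sod1 and Sod2 were not called. Srxn1 stood at 399, 442 and 692 CPM in TGH against 41.6, 41.7, 25.2 and 23.6 CPM in NTG hearts (log2 3.95 ± 0.24, adjusted p = 3.26e-07). Prdx6, the 1-Cys peroxiredoxin, stood at 715, 1832 and 699 CPM in TGH, with TGH 1 more than 2 times the others, and at 158 to 180 CPM in NTG hearts (log2 2.68 ± 0.28, adjusted p = 2.45e-05). Gpx1, the cytosolic glutathione peroxidase, changed less, at 103, 90.5 and 84.8 CPM in TGH against 54.7, 52.0, 59.1 and 59.3 CPM in NTG hearts (log2 0.72 ± 0.09, adjusted p = 0.000119).

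Of 14 thioredoxins, their reductases and glutaredoxins 4 rose and 1 fell, and the median log2 fold change was 0.06. That is 35.7% called, near the 32.4% of all tested genes. Txnrd1, the cytosolic thioredoxin reductase, stood at 212, 249 and 303 CPM in TGH against 66.5, 72.9, 66.7 and 57.8 CPM in NTG hearts (log2 1.95 ± 0.13, adjusted p = 7.26e-07). Its substrate Txn1 averaged 94.5 ± 4.43 CPM in TGH and 57.9 ± 4.24 CPM in NTG hearts (SD, n = 3 and 4; log2 0.71 ± 0.08, adjusted p = 6.92e-05). The mitochondrial partners Txn2 and Txnrd2 were not called. Glrx was called at an adjusted p of 0.0454 with overlapping groups and was no longer called without NTG 0, NTG 1, NTG 3, TGH 1 or TGH 2 (adjusted p = 0.0738 to 0.174).

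**Figure D2:**
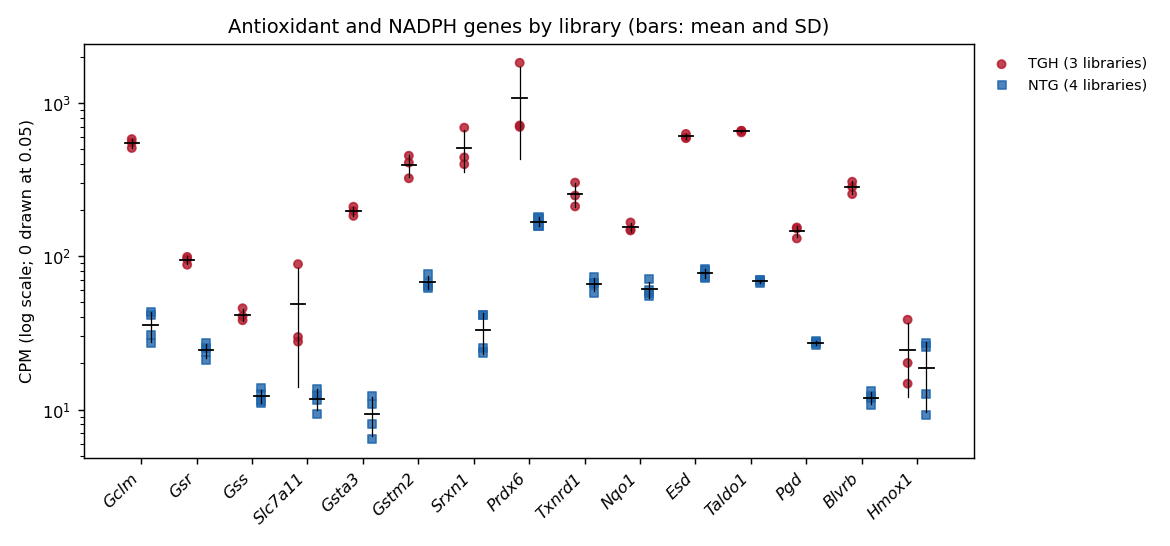
CPM (vertical, log scale) of 15 genes of glutathione, peroxide, quinone, NADPH and haem metabolism in each of 3 TGH libraries (red circles) and 4 NTG libraries (blue squares), with the mean and SD as bars. From Gclm to Blvrb the red points lie above all blue points; for Hmox1, at the right end, the groups overlap.

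Genes that supply NADPH and reduce quinones and carbonyls held some of the steadiest rises. Taldo1, transaldolase of the pentose phosphate pathway, stood at 659, 644 and 659 CPM in TGH against 70.3, 69.9, 69.0 and 66.7 CPM in NTG hearts (log2 3.25 ± 0.08, adjusted p = 2.73e-10). Pgd, 6-phosphogluconate dehydrogenase, stood at 152, 154 and 131 CPM in TGH and at 27.7, 27.2, 26.3 and 27.8 CPM in NTG hearts (log2 2.42 ± 0.10, adjusted p = 1.11e-08). The spread within a group was small beside the gap in both genes. The list as a whole was mixed, with 5 rises (Pgd, Tkt, Taldo1, Me2, Idh2) and 1 fall (Nnt) of 17 tested members and a median log2 fold change of 0.14. That is 35.3% called, near the 32.4% of all tested genes. Idh2 was no longer called without TGH 1 (adjusted p = 0.0621), and the fall of Nnt was lost without TGH 0 or TGH 1. The pathway's entry enzyme G6pdx averaged 8.67 ± 0.55 CPM in TGH and 7.59 ± 0.52 CPM in NTG hearts (SD, n = 3 and 4; log2 0.19 ± 0.12, adjusted p = 0.232, with 16.9% shared words), and the malic enzyme Me1 158 ± 12 CPM in TGH and 167 ± 8.06 CPM in NTG hearts (log2 -0.08 ± 0.07, adjusted p = 0.419, with 28.3% shared words).

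Of 22 quinone and carbonyl reductases 9 rose and 3 fell, with a median log2 fold change of 0.21. Nqo1, the quinone reductase used as a reporter of Nrf2, stood at 166, 148 and 150 CPM in TGH and at 71.4, 55.2, 57.5 and 59.9 CPM in NTG hearts (log2 1.34 ± 0.10, adjusted p = 2.38e-06). Esd, which hydrolyses the glutathione adduct of formaldehyde, stood at 590, 630 and 596 CPM in TGH against 72.4, 73.9, 82.9 and 81.0 CPM in NTG hearts (log2 2.96 ± 0.10, adjusted p = 2.85e-09). Ptgr1 and Cbr3 were low in NTG hearts, at 2.01 to 3.35 and 1.07 to 1.97 CPM, and stood at 18.1 to 29.0 and 11.5 to 12.5 CPM in TGH hearts. Nqo2, Akr1e1 and Akr7a5 fell. Not all of these falls were kept when any 1 library was left out. The list held 0 falls without NTG 0, NTG 1, TGH 1 or TGH 2, and 1 without TGH 0. It held 2 without NTG 2 or NTG 3.

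Haem and iron genes gave 5 rises and 3 falls of 18 tested members, with a median log2 fold change of 0.13. That is 44.4% called, beside 32.4% of all tested genes. Blvrb, which reduces a product of haem breakdown, stood at 307, 284 and 255 CPM in TGH and at 13.2, 11.8, 10.6 and 12.2 CPM in NTG hearts (log2 4.56 ± 0.13, adjusted p = 5.95e-10). Hfe, a regulator of iron sensing, stood at 188, 172 and 150 CPM in TGH against 47.6, 50.5, 21.2 and 35.6 CPM in NTG hearts (log2 2.13 ± 0.24, adjusted p = 4.36e-05). Fth1, the ferritin heavy chain, averaged 2698 ± 161 CPM in TGH and 1797 ± 40.6 CPM in NTG hearts (SD, n = 3 and 4; log2 0.59 ± 0.07, adjusted p = 5.05e-05). Hmox1, the inducible haem oxygenase, was not called, at 14.8, 20.2 and 38.6 CPM in TGH and 27.0, 25.8, 12.6 and 9.27 CPM in NTG hearts (log2 0.39 ± 0.50, adjusted p = 0.572). Its groups overlapped, and its standard error of 0.50 was close to the size of the log2 rise of Fth1. Ftl1, the ferritin light chain, was also not called (log2 0.25 ± 0.16, adjusted p = 0.267) and shares 58.4% of its words with other genes.

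Other lists of drug handling held both rises and falls. Of 19 tested genes of drug metabolism 5 rose and 7 fell (median log2 -0.25), and of 26 ABC transporters 6 rose and 5 fell (median -0.02), beside 16.0% and 16.4% of all tested genes. Ephx1, which opens epoxides, averaged 87.1 ± 8.07 CPM in TGH and 38.2 ± 4.79 CPM in NTG hearts (SD, n = 3 and 4; log2 1.19 ± 0.11, adjusted p = 1.11e-05). Ces1d, a carboxylesterase that also acts on stored lipid, stood at 24.2, 22.4 and 28.5 CPM in TGH against 143, 135, 186 and 118 CPM in NTG hearts (log2 -2.54 ± 0.17, adjusted p = 6.47e-07). The efflux pumps Abcc1 and Abcc4 rose, while Abca1, which exports cholesterol, averaged 22.9 ± 4.47 CPM in TGH and 46.1 ± 5.59 CPM in NTG hearts (SD, n = 3 and 4; log2 -1.01 ± 0.14, adjusted p = 0.000274). The ABC list held 1 fall without TGH 0, 2 without TGH 1 and 3 without NTG 0, NTG 1 or NTG 2. Among 13 genes of NAD metabolism the nicotinamide riboside kinase Nmrk2 was the 1 rise, at 38.1, 61.6 and 42.2 CPM in TGH and 4.82, 4.35, 3.11 and 7.90 CPM in NTG hearts (log2 3.23 ± 0.25, adjusted p = 2.64e-06, with 13.5% shared words), and Naprt, Sirt1 and Nmnat1 fell. The call of Nmnat1 was lost without TGH 2 (adjusted p = 0.0814). Of the NAD list 30.8% were called, near the 32.4% of all tested genes.

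Several of the largest rises lay outside these pathways. By the naming rule, the 12 largest log2 rises among called genes with an NTG mean of at least 1 CPM were Gsta1, Gsta2, Star, Tbx15, Sytl4, Serpina3c, Map1a, Kif5a, Heph, Kcnab1, Kif1a and Blvrb. Star, which carries cholesterol into mitochondria for steroid synthesis, stood at 348, 240 and 302 CPM in TGH and at 2.54, 2.59, 3.23 and 2.17 CPM in NTG hearts (log2 6.81 ± 0.16, adjusted p = 1.9e-10). Tbx15, a T-box factor of limb and muscle development, stood at 131, 129 and 194 CPM in TGH against 1.60, 0.622, 2.27 and 1.03 CPM in NTG hearts (log2 6.79 ± 0.27, adjusted p = 9.67e-09). Heph, a ferroxidase that helps iron leave cells, stood at 90.9, 89.5 and 77.5 CPM in TGH and 3.34, 3.42, 2.87 and 3.43 CPM in NTG hearts (log2 4.71 ± 0.10). Heph and Map7d2 shared the smallest adjusted p of all genes (1.64e-10).

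Map7d2, which binds microtubules and recruits kinesin, stood at 150, 181 and 159 CPM in TGH and at 0.946 ± 0.176 CPM on average in NTG hearts (SD, n = 4) (log2 7.43 ± 0.17). Map1a, a microtubule-associated protein best known from neurons, stood at 354, 374 and 288 CPM in TGH against 10.6, 9.54, 12.1 and 8.35 CPM in NTG hearts (log2 5.06 ± 0.15, adjusted p = 8.24e-10). The kinesin heavy chains Kif5a and Kif1a, motors of axonal transport, stood at 38.2 to 60.7 and 30.8 to 37.4 CPM in TGH hearts and at 0.687 to 4.66 and 0.802 to 1.60 CPM in NTG hearts. Kif5a was highest among NTG libraries in NTG 2. Sytl4, a granule-docking protein, averaged 100 ± 20.5 CPM in TGH and 1.69 ± 0.43 CPM in NTG hearts (SD, n = 3 and 4), and Kcnab1, a beta subunit of voltage-gated potassium channels, 34.0 ± 1.79 CPM in TGH and 1.30 ± 0.25 CPM in NTG hearts.

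A set of genes was silent or nearly so in NTG hearts and present in TGH hearts. The 8 largest rises with an NTG mean under 1 CPM were Nptx2, Sstr5, Brinp3, Tekt5, Skint7, Atp1b4, Nell2 and Gpr83. Nptx2, a secreted neuronal pentraxin, stood at 14.5, 31.5 and 36.5 CPM in TGH and had no count in NTG, which is at least 321-fold higher against a limit of 3 counts over the NTG group. Sstr5, a somatostatin receptor, stood at 15.9, 26.8 and 39.5 CPM in TGH and had no NTG count (at least 315-fold higher). Brinp3, Tekt5, Skint7 and Nell2, which are genes of brain, sperm flagella, skin and brain in textbook accounts, also had no NTG count and were at least 211-, 167-, 83.5- and 55.2-fold higher in TGH hearts. The lowest TGH library among these genes was at 3.40 CPM, for Nell2, against a limit of at most 0.401 CPM. Atp1b4, a member of the sodium pump beta family found in muscle, had 450 counts over the TGH libraries and 1 over the NTG libraries, a ratio of 525 with an exact 95% interval of 93.7 to 20800. Gpr83, a G protein-coupled receptor, stood at 47.2, 40.1 and 50.5 CPM in TGH and at 0 to 0.311 CPM in NTG hearts. No list fixed for this work gathers these genes, and what they share was not tested.

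The largest falls were fewer and concerned genes of low level. By the same rule, with an NTG mean of at least 1 CPM, they included C1s1, Pde11a, C1s2, Lgi1, Tac1, Dct, Adcy8, Clec4d, Tmem150c and Meig1. C1s1 (ENSMUSG00000038521, chromosome 6, 124530345 to 124542359), a serine protease of the first complement component, had 1, 0 and 1 counts in TGH and stood at 28.5, 28.4, 38.9 and 14.1 CPM in NTG hearts. Over the groups that is 2 against 935 counts, a level 401 times higher in NTG hearts with an exact 95% interval of 111 to 3320. Its neighbour and copy C1s2 stood at 0 to 0.117 CPM in TGH and 5.35, 4.97, 8.01 and 2.52 CPM in NTG hearts (75.9 times higher in NTG, interval 20.7 to 632). They share 35.1% and 26.9% of their words with other genes, but both were at the floor in every TGH library. In the low-level line C1s1 stood at 0.138, 14.97 and 11.78 CPM in TGL 0 to TGL 2. TGL 0 was thus at the TGH level, TGL 1 at the low end of the NTG range and TGL 2 below every NTG library.

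Around C1s1, in a window of 1000000 bases to each side chosen after its values were seen, 36 genes were tested, of which 8 rose and 11 fell, beside 16.0% and 16.4% of all tested genes. The complement protease C1ra, between C1rl and C1s1, averaged 3.94 ± 0.75 CPM in TGH and 12.98 ± 3.35 CPM in NTG hearts (SD, n = 3 and 4; log2 -1.72 ± 0.23, adjusted p = 0.000159, with 50.8% shared words). Gnb3, a G protein subunit farther along the same stretch, stood at 0.937, 0.606 and 2.49 CPM in TGH and 8.96, 8.50, 7.41 and 12.9 CPM in NTG hearts (log2 -2.84 ± 0.40, adjusted p = 0.000248). The adjoining C1rl was called as a rise (log2 1.24 ± 0.38, adjusted p = 0.028), a call lost without TGH 0, TGH 1, NTG 0 or NTG 1 (adjusted p = 0.0603 to 0.0909).

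Among the other falls, Dct, the melanin pathway enzyme dopachrome tautomerase, stood at 0.351, 0.432 and 0.649 CPM in TGH and at 7.89, 7.25, 10.3 and 8.93 CPM in NTG hearts (log2 -4.13 ± 0.27, adjusted p = 6.92e-07). Lgi1, a secreted synaptic protein with 12.9% shared words, was at 1.62 CPM in TGH 2 and at most 0.0865 CPM in TGH 0 and TGH 1, against 7.36 to 16.4 CPM in NTG hearts. Pde11a, a cyclic nucleotide phosphodiesterase, had no TGH count and 0.12 to 2.94 CPM in NTG hearts, which is at least 15.4-fold lower in TGH. Clec4d, a myeloid lectin, was no longer called without TGH 0 (adjusted p = 0.0743) or without TGH 1 (adjusted p = 0.114).

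**Figure D3:**
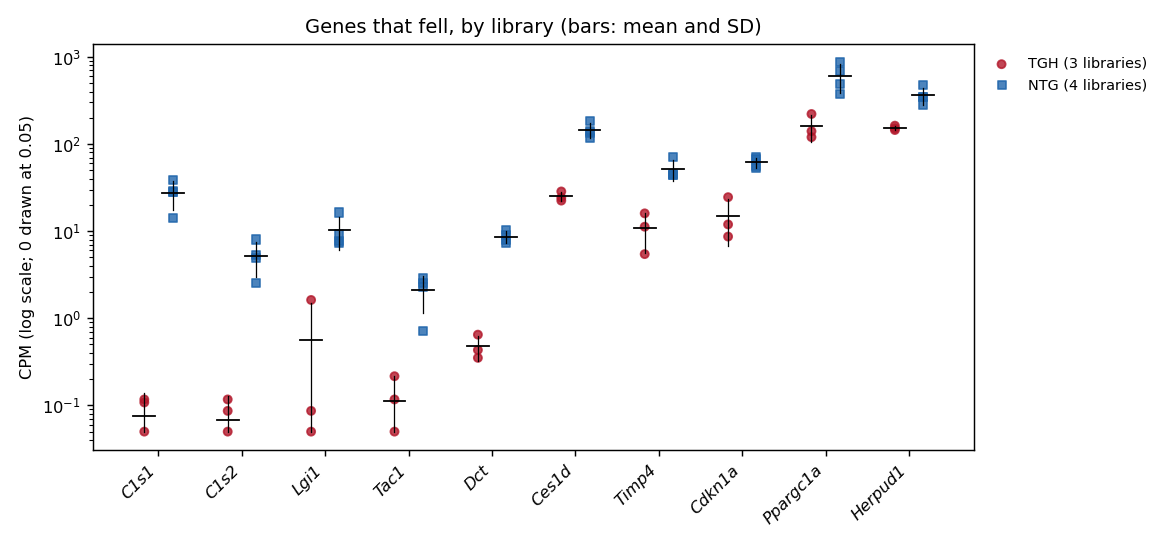
CPM (vertical, log scale, with 0 drawn at 0.05) of 10 genes that fell in TGH hearts, in each of 3 TGH libraries (red circles) and 4 NTG libraries (blue squares), with the mean and SD as bars. For C1s1 and C1s2 the TGH libraries lie at or under 0.117 CPM, and the groups do not overlap for any of the 10 genes.

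Genes of cardiac hypertrophy and of the fetal programme did not move as one. Of 20 tested members 8 rose (Nppa, Actc1, Ankrd1, Ankrd23, Nmrk2, Uchl1, Fhl1 and Myl4) and 2 fell (Xirp2 and Hand2), with a median log2 fold change of 0.22. Ankrd23 and Uchl1 share 75.0% and 12.6% of their words with other genes. Nppa, the atrial natriuretic peptide, stood at 316, 349 and 378 CPM in TGH and 42.3, 38.7, 80.6 and 68.5 CPM in NTG hearts (log2 2.60 ± 0.36, adjusted p = 0.00023, with 53.4% shared words). Myl4, the atrial essential light chain, stood at 37.4, 56.1 and 44.3 CPM in TGH and 2.81, 1.87, 3.47 and 2.86 CPM in NTG hearts (log2 4.07 ± 0.37, adjusted p = 8.47e-06). Nppb, the brain natriuretic peptide, was not called, at 293, 261 and 657 CPM in TGH and 84.7, 78.2, 629 and 159 CPM in NTG hearts (log2 0.76 ± 0.62, adjusted p = 0.368). NTG 2 held a TGH-like level of Nppb and 1063 CPM of Acta1, skeletal actin, against 181 to 242 CPM in the other NTG libraries and 125 to 163 CPM in TGH hearts. Without NTG 2, Nppb was called as a rise (adjusted p = 0.00205). Myh7, the slow myosin of fetal and stressed ventricle, stood at 2153 to 3033 CPM in TGH and 2552 to 5051 CPM in NTG hearts (log2 -0.43 ± 0.23, adjusted p = 0.176, with 20.04% shared words).

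The 10 atrial markers gave 4 rises (Myl4, Nppa, Dkk3 and Stard10) and 2 falls (Nr2f2 and Kcna5) of 7 tested. Their summed level was 433 to 509 CPM in TGH and 156 to 180 CPM in NTG hearts. Nppa, whose values are given above, made up most of the TGH sum and most of the gap. The defining atrial genes Myl7, Sln and Bmp10 were under the filter, with 0 to 2 counts in any TGH library and 0 to 4 in any NTG library. Kcna5, a potassium channel on this list, was no longer called without TGH 0 (adjusted p = 0.0757) or TGH 1 (adjusted p = 0.0959).

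Most sarcomere genes fell, by small amounts. Of 24 tested members 15 fell, 2 rose (Actc1 and Pdlim5) and the median log2 fold change was -0.33, beside 16.4% of all tested genes that fell. The list held 1 rise without NTG 0, NTG 1, TGH 0, TGH 1 or TGH 2. Tnni3, cardiac troponin I, stood at 3752, 3144 and 3169 CPM in TGH and at 5145, 5225, 4968 and 5164 CPM in NTG hearts (log2 -0.61 ± 0.08, adjusted p = 9.96e-05). Myl3, the ventricular essential light chain, stood at 3118, 3386 and 3895 CPM in TGH against 5509, 5498, 5059 and 5409 CPM in NTG hearts (log2 -0.63 ± 0.08, adjusted p = 0.000145). The M-band protein Myom2 averaged 717 ± 144 CPM in TGH and 1507 ± 235 CPM in NTG hearts (SD, n = 3 and 4; log2 -1.07 ± 0.17, adjusted p = 0.000552). Cmya5, a large Z-disc-associated protein, averaged 623 ± 90.2 CPM in TGH and 1409 ± 167 CPM in NTG hearts (SD, n = 3 and 4; log2 -1.18 ± 0.13, adjusted p = 3.06e-05, with 19.5% shared words). Members not called included Ttn, Mybpc3, Tcap, Myoz2, Nexn and Des.

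Genes of calcium cycling gave 8 falls and 4 rises of 21 tested, with a median log2 fold change of -0.20. The sarcoplasmic reticulum pump Atp2a2, its inhibitor Pln and the release channel Ryr2 fell, while the calcium store protein Casq2 and the sodium-calcium exchanger Slc8a1 rose. Slc8a1 was close to the threshold (log2 0.46 ± 0.16, adjusted p = 0.0488). The list held 3 rises without NTG 0, NTG 1, NTG 3, TGH 0, TGH 1 or TGH 2. Its largest change was a rise of Jsrp1 (log2 3.51 ± 0.365, adjusted p = 2.61e-05). The calcium/calmodulin kinase subunits went opposite ways: Camk2d stood at 417, 424 and 304 CPM in TGH and 204, 171, 191 and 214 CPM in NTG hearts (log2 0.97 ± 0.12, adjusted p = 9.85e-05), and Camk2b at 5.15, 6.06 and 4.54 CPM in TGH and 13.4, 14.9, 19.2 and 15.1 CPM in NTG hearts (log2 -1.57 ± 0.15, adjusted p = 1.73e-05). S100a1, which enhances calcium release in the heart, averaged 448 ± 75.3 CPM in TGH and 756 ± 46 CPM in NTG hearts (SD, n = 3 and 4; log2 -0.76 ± 0.10, adjusted p = 0.000193).

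Of 32 ion channel and pump genes 15 fell and 6 rose, with a median log2 fold change of -0.44. Scn4a, the skeletal muscle sodium channel, stood at 8.20, 9.26 and 8.54 CPM in TGH and 48.7, 39.9, 51.3 and 38.2 CPM in NTG hearts (log2 -2.35 ± 0.14, adjusted p = 3.04e-07). Cacna1h, a T-type calcium channel, stood at 2.34, 2.68 and 3.35 CPM in TGH and 10.03, 8.91, 7.17 and 12.8 CPM in NTG hearts (log2 -1.79 ± 0.25, adjusted p = 0.00028). Kcnip2, the subunit that shapes the transient outward potassium current, went the other way, at 857, 1048 and 795 CPM in TGH and 230, 226, 272 and 224 CPM in NTG hearts (log2 1.92 ± 0.12, adjusted p = 4.05e-07). Its pore-forming partner Kcnd2 fell and Kcnd3 was not called.

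**Figure D4:**
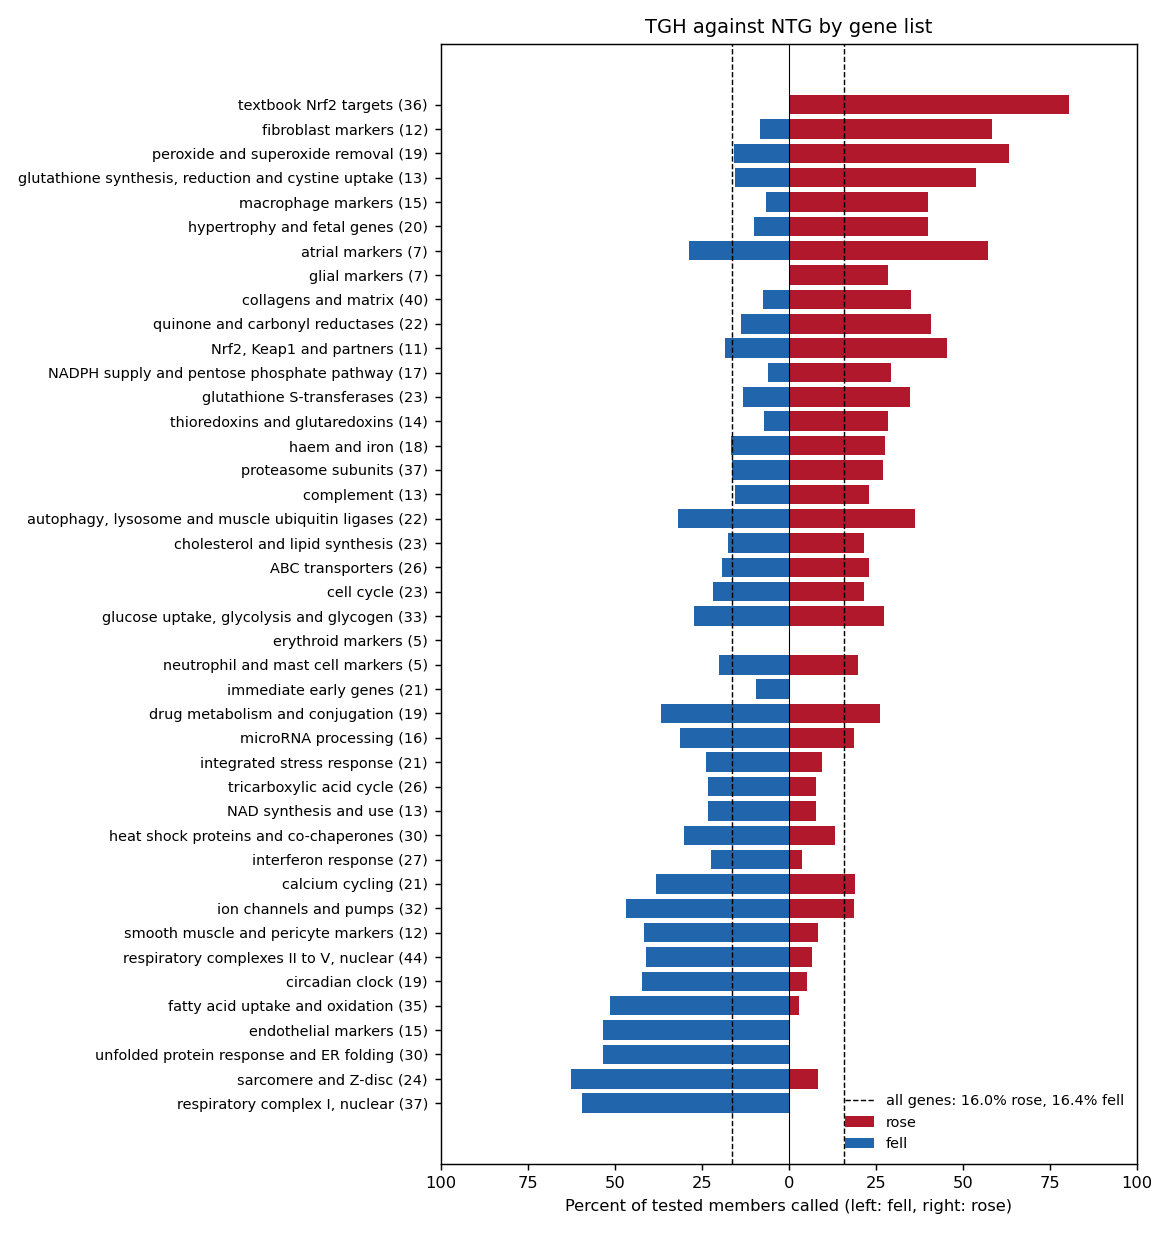
Percent of tested members of each gene list that rose (red, to the right) or fell (blue, to the left) in TGH against NTG hearts, for lists with at least 5 tested members, the number tested in brackets, sorted by the difference of both percentages; dashed lines mark 16.0% and 16.4%, the shares of all tested genes. Textbook Nrf2 targets stand at the top and nuclear subunits of respiratory complex I at the bottom, with 22 of 37 members that fell and none that rose.

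Many respiratory chain subunits encoded in the nucleus fell, mostly by small amounts. In complex I, which takes electrons from NADH, 22 of 37 tested members fell and none rose, with a median log2 fold change of -0.22 and a lowest value of -0.62. Without TGH 0 the list held 1 rise. Ndufv3 stood at 187, 179 and 156 CPM in TGH and 261, 266, 264 and 268 CPM in NTG hearts (log2 -0.61 ± 0.07, adjusted p = 8.91e-05), and Ndufa8 at 223, 222 and 233 CPM in TGH and 309, 297, 308 and 298 CPM in NTG hearts (log2 -0.42 ± 0.06, adjusted p = 0.000305). The groups did not overlap in either gene, though the difference was under a factor of 2. Of 44 subunits of complexes II to V 18 fell and 3 rose (Cox7a2, Cox8a and Atpif1), with a median of -0.16 and 5 rises without TGH 0. The lowest value of that list was a larger fall, of Cox6b2 (log2 -3.12 ± 0.52, adjusted p = 0.000925). The falls included the heart and muscle forms of cytochrome oxidase subunits: Cox6a2 averaged 938 ± 25.8 CPM in TGH and 1647 ± 97.3 CPM in NTG hearts (SD, n = 3 and 4; log2 -0.81 ± 0.07, adjusted p = 4.62e-06), Cox8b 311 ± 24.7 CPM in TGH and 554 ± 18.5 CPM in NTG hearts (log2 -0.84 ± 0.07, adjusted p = 5.08e-06), and Cox7a1 352 ± 29.8 CPM in TGH and 619 ± 37.4 CPM in NTG hearts (log2 -0.81 ± 0.08, adjusted p = 1.88e-05). Atpif1, the inhibitor of the ATP synthase running in reverse, rose by a log2 of 1.28 ± 0.12 (adjusted p = 1.5e-05, with 25.2% shared words). The catalytic subunit Atp5b averaged 5407 ± 333 CPM in TGH and 5588 ± 278 CPM in NTG hearts and was not called (log2 -0.05 ± 0.07, adjusted p = 0.642).

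Of the messages encoded by the mitochondrial genome 3 of the list's 13 were in the table used here, and all 3 fell. mt-Nd6 stood at 18056, 14661 and 12289 CPM in TGH and 30822, 30537, 28741 and 30351 CPM in NTG hearts (log2 -1.005 ± 0.11, adjusted p = 5.19e-05). mt-Nd4l and mt-Nd3 fell by a log2 of -0.67 ± 0.12 (adjusted p = 0.0013) and -0.44 ± 0.11 (adjusted p = 0.00989), but 98.8% and 98.0% of their words occur in other genes. The large mitochondrial ribosomal RNA mt-Rnr2 stood at 5542, 5388 and 6780 CPM in TGH and 26484, 23309, 11978 and 20030 CPM in NTG hearts (log2 -1.79 ± 0.36, adjusted p = 0.00276). Every TGH library lay below every NTG library, and NTG 2 held the lowest NTG value.

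Many fatty acid genes fell and glucose genes were mixed. Of 35 tested genes of fatty acid uptake and oxidation 18 fell and 1 rose (Ppargc1b), with a median log2 fold change of -0.29. The list held 0 rises without NTG 1, NTG 2 or TGH 0 and 2 without TGH 2. Lpl, lipoprotein lipase, which frees fatty acids from circulating lipid, stood at 3857, 3234 and 3777 CPM in TGH and 9283, 8805, 6972 and 7994 CPM in NTG hearts (log2 -1.19 ± 0.10, adjusted p = 6.42e-06). Hadha, a subunit of the mitochondrial trifunctional enzyme, averaged 1195 ± 117 CPM in TGH and 1915 ± 85.5 CPM in NTG hearts (SD, n = 3 and 4; log2 -0.68 ± 0.08, adjusted p = 5.81e-05). Ppargc1a, the coactivator of mitochondrial gene expression, named after its values were seen, stood at 140, 120 and 221 CPM in TGH and 486, 687, 864 and 380 CPM in NTG hearts (log2 -1.91 ± 0.42, adjusted p = 0.00515). Cd36, the fatty acid translocase, and Pdk4, which blocks pyruvate oxidation, were not called, with log2 fold changes of -0.07 ± 0.10 (adjusted p = 0.64) and -0.09 ± 0.26 (adjusted p = 0.813). The list's mean was lowest in TGH 2, at -0.60 log2 relative to NTG, against -0.24 and -0.27 in TGH 0 and TGH 1.

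Of 33 genes of glucose uptake, glycolysis and glycogen 9 rose and 9 fell, with a median log2 fold change of 0.08. The rises included enzymes of glycogen: Gbe1, the branching enzyme, stood at 326, 284 and 271 CPM in TGH and 73.2, 74.1, 81.9 and 77.0 CPM in NTG hearts (log2 1.94 ± 0.10, adjusted p = 8.6e-08), and Phka1, a subunit of phosphorylase kinase, at 260, 221 and 189 CPM in TGH and 62.2, 64.0, 72.2 and 62.7 CPM in NTG hearts (log2 1.77 ± 0.10, adjusted p = 2.25e-07). The basal glucose carrier Slc2a1 and hexokinase Hk1 rose, whereas the insulin-regulated carrier Slc2a4 and Hk2 fell, with Hk2 averaging 213 ± 7.89 CPM in TGH and 349 ± 30.4 CPM in NTG hearts (SD, n = 3 and 4; log2 -0.71 ± 0.08, adjusted p = 4.97e-05). Slc2a1 was close to the threshold (log2 0.80 ± 0.28, adjusted p = 0.0485). The glucose list held 6 rises without NTG 0 or TGH 1 and 7 without NTG 1, TGH 0 or TGH 2. It held 7 falls without TGH 1 or TGH 2. Of 26 genes of the tricarboxylic acid cycle 6 fell and 2 rose, with a median of -0.15. That is 30.8% called, near the 32.4% of all tested genes. Citrate synthase, Cs, was lower by a log2 of -0.39 ± 0.07 (adjusted p = 0.00213). The cycle's rises, Idh2 and Pdp1, were 0 without TGH 1 and 1 without NTG 0, NTG 1, NTG 3 or TGH 0. Among 23 genes of cholesterol and lipid synthesis 5 rose, Star among them, and 4 fell, with a median of 0.19. That list held 3 rises without NTG 0, NTG 3 or TGH 1. In the main fit 39.1% of it was called, beside 32.4% of all tested genes.

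Many genes of protein folding in the endoplasmic reticulum fell. Of 30 tested members of the unfolded protein response 16 fell and none rose, with a median log2 fold change of -0.56. Canx, whose window is printed above, stood at 239, 237 and 280 CPM in TGH and 431, 421, 372 and 435 CPM in NTG hearts (log2 -0.72 ± 0.10, adjusted p = 0.000323). Hspa5 stood at 454, 411 and 609 CPM in TGH against 1035, 954, 720 and 1142 CPM in NTG hearts (log2 -0.97 ± 0.20, adjusted p = 0.00331). Herpud1, which acts in the disposal of misfolded proteins, stood at 162, 145 and 152 CPM in TGH and 343, 344, 478 and 284 CPM in NTG hearts (log2 -1.24 ± 0.20, adjusted p = 0.000745). The stress sensors Atf6, Ern1 and Eif2ak3 were not called. The extent depended on the libraries: TGH 2 was the highest TGH library and NTG 2 the lowest NTG library in both Canx and Hspa5. The count of falls was 9 without TGH 0 or without TGH 1, and 19 without both NTG 2 and TGH 2, a choice made after the data were seen.

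Cytosolic heat shock proteins and their co-chaperones gave 9 falls and 4 rises of 30 tested members, with a median log2 fold change of -0.46. Fkbp4, a co-chaperone of steroid receptors, stood at 149, 156 and 218 CPM in TGH and 498, 456, 372 and 479 CPM in NTG hearts (log2 -1.37 ± 0.15, adjusted p = 4.1e-05). Hspa8, the constitutive Hsp70, stood at 573, 522 and 930 CPM in TGH and 1607, 1443, 1276 and 1370 CPM in NTG hearts (log2 -1.08 ± 0.22, adjusted p = 0.00327, with 39.4% shared words). The inducible Hspa1a stood at 1.87, 7.01 and 43.4 CPM in TGH and 196, 117, 12.1 and 93.3 CPM in NTG hearts and was not called (log2 -2.59 ± 1.33, adjusted p = 0.156, with 66.3% shared words). NTG 2 lay within the TGH range and TGH 2 within the NTG range of Hspa1a. Without both libraries Hspa1a was called (adjusted p = 0.0374) and the list held 19 falls; without TGH 0 it held 5 and without TGH 1 it held 4. Without NTG 2 alone the list held 13 falls. The list's mean log2 level was -0.89, -0.74 and -0.16 relative to NTG in TGH 0 to TGH 2, and 0.26, 0.07, -0.44 and 0.11 in NTG 0 to NTG 3. Of 21 genes of the integrated stress response 5 fell (Atf5, Asns, Chac1, Cebpb and Vldlr) and 2 rose (Psat1 and Pycr1), with 2 falls left without TGH 1 and 3 without TGH 0. Of that list 33.3% were called, near the 32.4% of all tested genes. The list held 0 rises without TGH 1 and 1 without NTG 0, NTG 2, TGH 0 or TGH 2, and Pycr1 was also lost without TGH 0 (adjusted p = 0.0614). Its central factor Atf4 averaged 114 ± 11.7 CPM in TGH and 130 ± 14.2 CPM in NTG hearts and was not called (log2 -0.18 ± 0.13, adjusted p = 0.308).

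Proteasome and autophagy genes held both rises and falls. Of 37 proteasome genes 10 rose and 6 fell, with a median log2 fold change of 0.04, beside 16.0% and 16.4% of all tested genes. Psma5, a ring subunit, stood at 62.4, 76.3 and 68.5 CPM in TGH and 22.7, 24.1, 22.4 and 22.4 CPM in NTG hearts (log2 1.59 ± 0.10, adjusted p = 2.99e-07, with 49.96% shared words), and Psmd11, of the regulatory lid, averaged 185 ± 30.7 CPM in TGH and 100 ± 2.83 CPM in NTG hearts (SD, n = 3 and 4; log2 0.88 ± 0.10, adjusted p = 3.6e-05). Psme1, of the interferon-inducible activator, averaged 66.2 ± 6.68 CPM in TGH and 108 ± 4.89 CPM in NTG hearts (log2 -0.71 ± 0.09, adjusted p = 0.000147). Without TGH 2 the list held 6 rises, and without TGH 1 it held 3 falls. Of 22 genes of autophagy, lysosomes and muscle ubiquitin ligases 8 rose and 7 fell, and 4 falls were left without TGH 0 or without TGH 2. Lamp2, a lysosomal membrane protein, stood at 326, 348 and 344 CPM in TGH and 246, 252, 244 and 245 CPM in NTG hearts (log2 0.46 ± 0.06, adjusted p = 0.000184). The atrophy ligase Trim63 fell and Fbxo32 was not called.

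Markers of the cells around the myocytes moved in different directions. None of 15 endothelial markers rose and 8 fell, with a median log2 fold change of -0.45 and a summed level of 1672 to 1938 CPM in TGH and 2550 to 2727 CPM in NTG hearts. Pecam1, an endothelial junction protein, stood at 146, 114 and 150 CPM in TGH and 221, 233, 227 and 218 CPM in NTG hearts (log2 -0.72 ± 0.09, adjusted p = 0.000146). Flt1, a receptor of vascular growth factor, stood at 108, 88.8 and 140 CPM in TGH and 244, 276, 258 and 213 CPM in NTG hearts (log2 -1.14 ± 0.20, adjusted p = 0.00122), while the companion receptor Kdr was not called (log2 -0.10 ± 0.27, adjusted p = 0.794). Of 12 smooth muscle and pericyte markers 5 fell and 1 rose, and the pericyte gene Rgs5 averaged 585 ± 66.4 CPM in TGH and 966 ± 19.1 CPM in NTG hearts (SD, n = 3 and 4; log2 -0.72 ± 0.09, adjusted p = 0.000101). Their summed levels overlapped, at 3459 to 4155 CPM in TGH and 3686 to 4973 CPM in NTG hearts, and 3 falls were left without NTG 1, TGH 1 or TGH 2, while 2 rises were called without NTG 2.

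Among called fibroblast and matrix genes more rose than fell. Of 12 fibroblast markers 7 rose and 1 fell, with a median log2 fold change of 0.41 and a summed level of 3143 to 3733 CPM in TGH and 2387 to 2669 CPM in NTG hearts. Of 40 collagen and matrix genes 14 rose and 3 fell, with a median of 0.29. The summed levels of this matrix list overlapped, at 4197 to 5158 CPM in TGH and 3904 to 5156 CPM in NTG hearts. Its mean log2 level relative to NTG was 0.15, 0.02 and 0.28 in TGH 0 to TGH 2. In NTG 0 to NTG 3 it was -0.10, -0.20, 0.32 and -0.03, so NTG 2 lay above every TGH library. Lum, the proteoglycan lumican, stood at 214, 227 and 228 CPM in TGH and 83.5, 63.9, 129 and 94.7 CPM in NTG hearts (log2 1.27 ± 0.18, adjusted p = 0.000308). Col1a1, a chain of type I collagen, averaged 79.5 ± 4.79 CPM in TGH and 47.6 ± 12 CPM in NTG hearts (SD, n = 3 and 4; log2 0.74 ± 0.18, adjusted p = 0.00785), and Postn, made by activated fibroblasts, 86.3 ± 13.1 CPM in TGH and 50.2 ± 11.4 CPM in NTG hearts (log2 0.78 ± 0.16, adjusted p = 0.00298). The NTG library nearest to TGH was NTG 3 for Col1a1 and NTG 2 for Postn. The largest change of the matrix list was a fall: Timp4, an inhibitor of matrix proteases, stood at 11.2, 5.45 and 16.0 CPM in TGH and 44.4, 44.0, 71.4 and 45.2 CPM in NTG hearts (log2 -2.25 ± 0.42, adjusted p = 0.00197). The fibroblast marker Pdgfra was not called (log2 -0.01 ± 0.22, adjusted p = 0.973). Without TGH 2 the matrix list held 6 falls.

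Macrophage markers rose in part, and most lymphocyte markers were under the low-count filter. Of 15 macrophage markers 6 rose (Adgre1, Csf1r, C1qa, C1qc, Cx3cr1 and Lyz2) and 1 fell (Mertk), with a median log2 fold change of 0.53 and a summed level of 611 to 663 CPM in TGH and 418 to 557 CPM in NTG hearts. Lyz2, macrophage lysozyme, stood at 242, 240 and 218 CPM in TGH and 144, 135, 161 and 150 CPM in NTG hearts (log2 0.66 ± 0.09, adjusted p = 0.000291, with 15.4% shared words). Adgre1, the macrophage marker F4/80, averaged 14.8 ± 0.77 CPM in TGH and 8.32 ± 0.39 CPM in NTG hearts (SD, n = 3 and 4; log2 0.83 ± 0.17, adjusted p = 0.00381). Cd68 and Mrc1 were not called, and Cd68 was called without NTG 2 (adjusted p = 0.0285). Only Ptprc of 12 lymphocyte markers passed the filter. It was not called, the summed levels were 8.43 to 12.7 CPM in TGH and 8.16 to 10.8 CPM in NTG hearts, and Cd8a had no count in any of the 7 libraries. Among neutrophil and mast cell markers Ly6g had 224 counts over TGH and 1 over NTG libraries (ratio 261, exact 95% interval 46.4 to 10400), while S100a8 stood at 0.108 to 0.468 CPM in TGH and 1.37 to 1.76 CPM in NTG hearts and Cxcr2 had 0 or 1 counts in each TGH library. Of the 5 tested members of that list Ly6g rose, Kit fell and the other 3 were not called, and 4 of the 5 had a negative log2 fold change. The call of Kit was lost without NTG 0, NTG 1, TGH 0 or TGH 1 (adjusted p = 0.0543 to 0.151). The summed level of that list, Ly6g included, was 12.3 to 15.2 CPM in TGH and 13.3 to 16.5 CPM in NTG hearts.

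No tested erythroid, mesothelial or adipocyte marker rose, but only 1 of 7 mesothelial and 1 of 8 adipocyte markers was tested. None of 5 tested erythroid markers was called, though 2 were called as falls without NTG 2, and their summed levels were 719 to 805 CPM in TGH and 737 to 1135 CPM in NTG hearts. Of 7 tested glial markers Sox10 and S100b rose, at summed levels of 154 to 167 CPM in TGH and 153 to 253 CPM in NTG hearts, and S100b was called without TGH 1 but in none of the 6 fits that left out another library (adjusted p = 0.0589 to 0.144). Wt1 of the mesothelial list was not called, and Lipe, the lipase of the adipocyte list that muscle also expresses, was called as a fall at an adjusted p of 0.0452, with overlapping groups and 10.8% shared words. Lipe lost that call in 6 of the 7 fits that left out 1 library and kept it without TGH 0. Whether the change of any gene group reflects a change in cell make-up was not tested.

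Interferon-response and complement genes were called in both directions. Of 27 interferon-response genes 6 fell (Irf1, Gbp2, Ifi205, H2-K1, H2-D1 and B2m) and 1 rose (Ifi27l2a), with a median log2 fold change of -0.01. Of all tested genes 16.4% fell and 16.0% rose. The list held 2 falls without TGH 1 and 4 rises without TGH 2. B2m, the light chain of class I molecules, stood at 330, 217 and 234 CPM in TGH and 458, 352, 354 and 464 CPM in NTG hearts (log2 -0.65 ± 0.15, adjusted p = 0.00653). Of 13 complement genes 3 rose, among them C1qa and C1qc, and 2 fell (C1ra and C3), beside 16.0% and 16.4% of all tested genes. The list does not hold C1s1, C1s2 and C1rl, whose values are given above. C3, the central component, stood at 65.0, 47.1 and 55.6 CPM in TGH and 140, 133, 170 and 126 CPM in NTG hearts (log2 -1.35 ± 0.14, adjusted p = 2.4e-05).

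The calls of clock, early response and cell cycle genes varied with which library was left out. Of 19 circadian genes 8 fell and 1 rose (Clock), with a median log2 fold change of -0.47, but 2 falls were left without TGH 1, 3 without NTG 1, 4 without TGH 0 and 5 without NTG 0. The list held 0 rises without NTG 0, NTG 1, TGH 1 or TGH 2. Ciart, a repressor of the clock, stood at 3.16, 1.64 and 5.84 CPM in TGH and 18.6, 19.6, 13.03 and 9.16 CPM in NTG hearts (log2 -2.12 ± 0.51, adjusted p = 0.00821, with 11.9% shared words). The hour of tissue collection is not given in the sources used here. Of 21 immediate early genes 2 fell (Klf4 and Klf6), and their list mean was -1.33 log2 relative to NTG in TGH 0 against 0.00 and -0.23 in TGH 1 and TGH 2. The list held 1 fall without NTG 0, NTG 1, NTG 3, TGH 0 or TGH 1, 4 without NTG 2 and 5 without TGH 2, and it held 1 rise without TGH 0 or TGH 2. Of 23 cell cycle genes 5 rose (Mki67, Top2a, Ccna2, Ccnb2 and Mcm2) and 5 fell (Ccnd1, Ccnd2, Ccnd3, Cdkn1a and Cdkn1c). Of the cell cycle list 43.5% were called, beside 32.4% of all tested genes. Without TGH 1 the calls were 0 rises and 1 fall. The rises were also 1 or 2 without NTG 0, NTG 1, NTG 3 or TGH 0 and 8 without NTG 2, and the falls were 3 without NTG 0 and 2 without TGH 0. Cdkn1a, the inhibitor p21, stood at 8.67, 11.9 and 24.5 CPM in TGH and 53.2, 55.7, 66.7 and 70.2 CPM in NTG hearts (log2 -2.03 ± 0.51, adjusted p = 0.0107), and this call was lost without TGH 1 (adjusted p = 0.0557). Of 16 genes of microRNA processing 3 rose (Ago1, Tnrc6a and Ran) and 5 fell (Drosha, Xpo5, Ago4, Tnrc6c and Ddx5), with all 8 within a log2 of -0.50 to 0.54. Without TGH 1 the list held 3 falls.

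**Figure D5:**
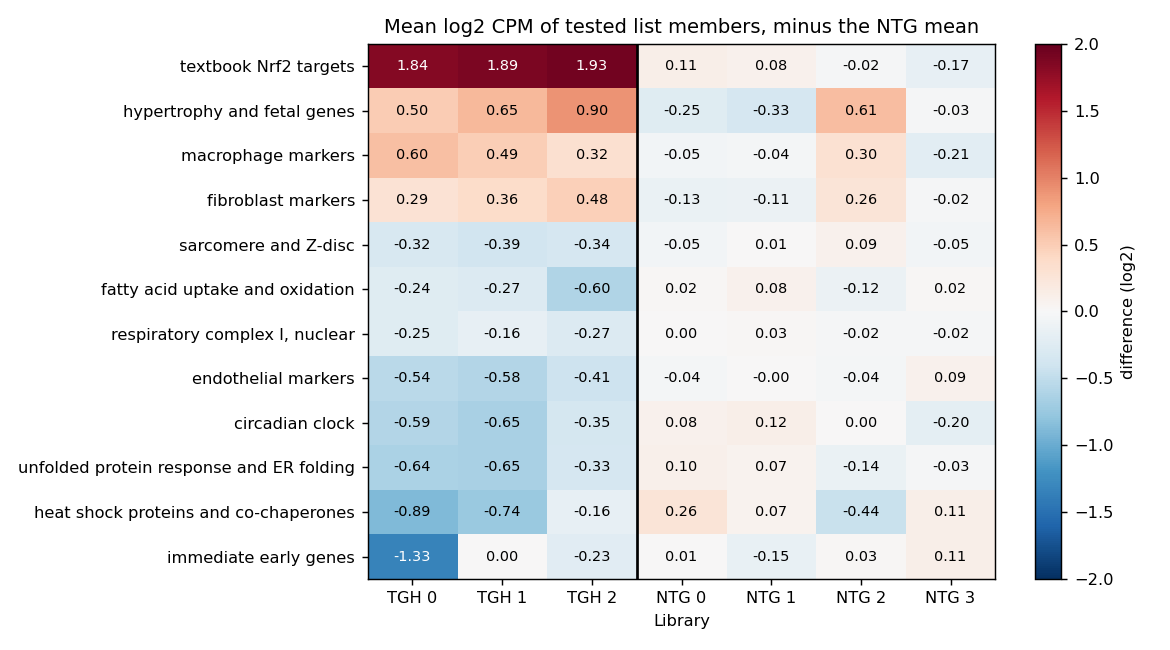
Mean log2 CPM of the tested members of 12 gene lists in each of 3 TGH and 4 NTG libraries, minus the mean of the 4 NTG libraries; red is above and blue below the NTG mean, and each cell gives the difference. The textbook Nrf2 targets are even across TGH 0 to TGH 2 (1.84 to 1.93), while heat shock genes range from -0.89 to -0.16 and immediate early genes from -1.33 to 0.00.

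Part of what separated TGH from NTG hearts also separated TGH from the lower-level line. In the test of TGH against TGL hearts 1399 of 14511 genes (9.64%) were called, 803 higher and 596 lower in TGH. Without TGH 1 they numbered 730 and without TGL 1 they numbered 803. Of the 2322 genes that rose in TGH over NTG hearts, 744 (32.0%) were also higher in TGH than in TGL and 1 was lower. Of the 2378 that fell, 523 (22.0%) were also lower in TGH than in TGL and 1 was higher. TGH libraries enter both comparisons, so these shares are a description. Of the textbook targets 24 of 36 were called between the lines. Gsta1 stood at 306, 274 and 217 CPM in TGL hearts, between the TGH and NTG values given above, and TGH exceeded TGL by a log2 of 1.62 ± 0.15 (adjusted p = 0.000114). Gclm stood at 182, 202 and 160 CPM and Taldo1 at 254, 273 and 214 CPM in TGL hearts, with TGH higher by 1.60 (adjusted p = 0.00014) and 1.41 (adjusted p = 1.52e-05). For Star the difference between the lines was 1.12 (adjusted p = 0.000324), with 123, 138 and 149 CPM in TGL hearts.

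Some genes that changed in TGH hearts, picked after their values were seen, differed between the lines as well. Hfe was at 42.7, 36.5 and 27.5 CPM in TGL hearts, where TGH minus TGL was a log2 of 2.25 ± 0.26 (adjusted p = 0.000345), and its TGL values lay within the NTG range. Tnni3 was at 4978, 5051 and 4864 CPM in TGL hearts (TGH minus TGL log2 -0.57, adjusted p = 0.00111), S100a1 at 813, 781 and 787 CPM (-0.83, adjusted p = 0.000661), Cacna1h at 16.2, 12.8 and 9.45 CPM (-2.19, adjusted p = 0.00041) and mt-Nd6 at 28331, 26220 and 28662 CPM (-0.89, adjusted p = 0.000828). For mt-Nd6 every TGL library lay below every NTG library. Keap1 was at 45.8, 46.8 and 45.8 CPM in TGL hearts (TGH minus TGL log2 0.44, adjusted p = 0.00368), above every NTG library. Other genes were not called between the lines. For Nfe2l2, at 156, 128 and 182 CPM in TGL hearts, the difference was 0.54 ± 0.21 (adjusted p = 0.129). Nppa was at 293, 894 and 356 CPM in TGL hearts (TGH minus TGL log2 -0.57, adjusted p = 0.387), with TGL 1 the highest of all libraries, and none of the 30 unfolded protein response genes was called between the lines (median log2 -0.22). A p that misses the threshold does not show that the lines were alike.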

How the data were processed

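Messenger RNA of left ventricles was read in 10 libraries. Per the submitters' processing notes, the tools were Novoalign and SAMtools on mm10 (GRCm38), after bcl2fastq 1.8.4 and Trim Galore 0.4.0, with DESeq2 1.18.1. Which counter, annotation and strand setting were used is not given in the sources used here. Deposited were whole-number counts per gene, and beside them the authors' comparison of both transgenic lines with controls (a mean signal, a log2 fold change, a score for the test and p-values), whose columns were not used.

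The levels and tests here were computed from the counts. Of 21222 genes, 1324 had no symbol (0.777% of counts), and 21 symbols turned into dates were restored. Counts were fitted in edgeR 4.0.16 (R 4.3.3) with TMM factors and the filterByExpr filter. All 10 libraries in 3 groups shared 1 estimate of the spread, and the quasi-likelihood F test was adjusted by Benjamini-Hochberg over 14511 genes at 0.05. Standard errors were derived from F and the log2 fold change. The biological coefficient of variation was 13.9%. Totals were 7076319 to 10896535 counts over the 10 libraries. Nfe2l2 was also tested by exact permutation. Exact 95% intervals and the limit of 3 counts cover counting error only. Shared words are the percent of a gene's 50-base words found in transcripts of other genes. The scripts were tested on simulated data.

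Members and lists were chosen with earlier results of these data known. Named genes were Nfe2l2 and Keap1 and, among called genes with groups that did not overlap, those with the largest changes or smallest p. These were the 12 largest rises and falls with an NTG mean of at least 1 CPM, the 8 largest rises under it and the 8 smallest adjusted p. The members of each list with the smallest adjusted p were named whether or not the groups overlapped, besides members that did not pass. Some genes under this rule are not reported here. Replicate numbers were not used to pair the samples in the main fit. Alternatives were DESeq2 1.42.0, RLE factors, other filters and thresholds, the compared groups alone, a replicate block and leaving out libraries.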

Additional observations from a re-analysis of the deposited data

Results flagged for a closer look

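In 17 of the 256 named genes 1 NTG library stood apart from the other 3, with a gap beyond Dixon's critical value at 95% for 4 samples. Chance flags about 1 in 20 groups. The TGH group, with 3 libraries, was not examined this way.

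NTG 2 held 11 of the 17. It was high for Acta1 (1063 CPM, against 181 to 242 CPM in the other NTG libraries), Nppb (629 CPM, against 78.2 to 159 CPM), Kcnip2 (272 CPM, against 224 to 230 CPM), Timp4 (71.4 CPM, against 44.0 to 45.2 CPM) and Postn (67.1 CPM, against 42.9 to 46.8 CPM). It was also high for Kif5a (4.66 CPM, against 0.687 to 1.14 CPM), Serpina3c (3.11 CPM, against 0.933 to 1.14 CPM) and Atp1b4 (0.12 CPM, against no count). It was low for Hsp90b1 (432 CPM, against 643 to 687 CPM), Klf2 (38.4 CPM, against 68.1 to 73.5 CPM) and Heph (2.87 CPM, against 3.34 to 3.43 CPM).

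NTG 3 was low for Nfe2l1 (621 CPM, against 688 to 701 CPM) and high for Fos (9.04 CPM, against 4.35 to 4.78 CPM) and Ly6g (0.114 CPM, against no count). NTG 0 was high for Cox6a2 (1793 CPM, against 1592 to 1606 CPM) and Kit (8.43 CPM, against 5.15 to 5.7 CPM) and low for Csf3r (0.669 CPM, against 1.37 to 1.45 CPM). The value of Atp1b4 in NTG 2 and that of Ly6g in NTG 3 are single counts.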

How the results depend on the processing

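The count of genes called between TGH and NTG hearts was 4700, with 2322 rises and 2378 falls. It was 4400 with DESeq2 and 4694 with RLE factors. An adjusted p under 0.01 left 2645 genes (1398 rises and 1247 falls), and asking for a 2-fold change left 1318 (820 rises and 498 falls). Without 1 library the count ran from 3108 to 4552, with 1610 to 2281 rises and 1498 to 2271 falls, and it was lowest without TGH 1. Between TGH and TGL hearts 1399 genes were called, 573 at an adjusted p under 0.01 (359 higher, 214 lower in TGH) and 456 with a 2-fold change (289 higher, 167 lower). Without 1 library that count ran from 730, without TGH 1, to 1599, without NTG 2, with 456 to 893 higher and 274 to 706 lower in TGH. It was 803 without TGL 1. Leaving out TGL libraries was chosen after seeing the data. The cause was not tested. No called result reversed under the alternatives run. Of 221 named genes that were called, 194 kept the call in each of 14 alternatives that gave them a value, an adjusted p under 0.01 not among these. The exact test of Nfe2l2 gave 1.57- to 1.97-fold without 1 library. It could not pass 0.05 there, nor with all 7 libraries.

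Correlations of same-numbered TGH and NTG deviations from their group means were 0.00452, -0.036 and 0.0146. TGL libraries were left out of that check. Relative to NTG, the heat shock list mean was -0.85, -0.69 and 0.22 in TGL 0 to TGL 2. In TGH 0 to TGH 2 it was -0.89, -0.74 and -0.16. The immediate early list ran less alike, at -1.16, -0.98 and 0.39 in TGL and -1.33, 0.00 and -0.23 in TGH. Whether same-numbered samples share a batch was not tested. With a replicate block 4320 genes were called (2095 rises and 2225 falls). Leaving out NTG 2 and TGH 2 together, chosen after seeing the data, gave 4349. Depth limits genes near 3 counts.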
